A study of Mus musculus with 6 samples.

Results

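Interferon-stimulated effector genes encode the proteins with which a cell answers an interferon. A list of 45 such genes, taken by gene symbol and grouped by protein family, was followed in B16 melanoma cells with high or low tyrosinase activity. The list was chosen with earlier results of these data known, so counts over it may not be independent of the data. Of the 45 genes 44 were listed in at least 1 library and 43 passed the filter for testing, out of 20788 genes listed in the series and 14336 tested. *Ifitm1* was listed in no library, and *Oas3* was listed in all 6 libraries but below the filter. B16 is a mouse melanoma line of C57BL/6 origin, and the study had drawn subclones from it by growing single cells into colonies. The study sorted these by how far they used tyrosine for melanin, after measuring tyrosinase activity and proteins of melanin synthesis. Tyrosinase is the enzyme that opens melanin synthesis from tyrosine. Tyr-L cells were the subclones with low and Tyr-H cells those with high tyrosinase activity. Both were grown untreated in low-glucose DMEM with fetal bovine serum, penicillin and streptomycin, no interferon was named among the additions, and messenger RNA of 3 libraries per group was sequenced. The sources do not say if the libraries within a group were grown apart or from different clones, so the p-values measure the spread between these libraries, which may be technical.

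Type I and type III interferons signal through receptors whose JAK kinases switch on the transcription factor complex ISGF3, of which STAT2 and IRF9 are parts. ISGF3 binds the interferon-stimulated response element (ISRE) in the promoters of target genes, while interferon-γ acts mainly through the gamma-activated site (GAS). The target genes include RNA-binding proteins, nucleotide-modifying enzymes, large and small GTPases that attack intracellular membranes, blockers of viral entry, and a conjugation system built on the ubiquitin-like protein ISG15. In tumour cells the same genes can be transcribed at a low level without added interferon.

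The libraries were comparable in depth, at an estimated 18600000 to 22200000 fragments read from the steps between the lowest values, and 17211 to 17413 genes were listed in Tyr-L and 16813 to 16949 in Tyr-H libraries. The median absolute log2 difference between libraries was 0.0953 to 0.114 within groups and 0.315 to 0.371 between groups. Levels are given as FPKM, fragments per kilobase of transcript per 1000000 mapped fragments, with values of a group in the order of libraries 1 to 3 or as mean ± SD (n = 3 libraries). All 7 melanocyte lineage markers were listed, with *Mlana* at 654 to 810 FPKM. By adjusted p 1 of them was higher in Tyr-H cells, namely *Tyr*, and the other 6 were lower, with a median log2 fold change of -0.57 over the list. Of all tested genes 17.9% passed higher and 39.9% lower. *Tyr*, which encodes tyrosinase, stood at 10.7, 9.52 and 9.80 FPKM in Tyr-L against 23.8, 20.6 and 19.7 FPKM in Tyr-H cells, above its Tyr-L values in every Tyr-H library (log2 fold change 1.08, SE 0.08, adjusted p = 4e-06). *Mitf*, the master regulator of the melanocyte lineage, was called lower in Tyr-H cells, with 90.5 ± 6.64 FPKM in Tyr-L against 25 ± 1.56 FPKM in Tyr-H cells (log2 fold change -1.85, SE 0.06, adjusted p = 1e-07). *Pmel* (-0.73), *Dct* (-0.64), *Sox10* (-0.57), *Mlana* (-0.24) and *Tyrp1* (-0.23) passed lower under the fold threshold, with log2 fold changes in parentheses. After median ratio scaling *Mlana* and *Tyrp1* no longer passed (adjusted p = 0.062 and 0.23). Of 10 leukocyte markers 7, including the defining genes *Ptprc*, *Cd3e*, *Adgre1* and *Itgam*, were listed in no library. *Lyz2*, a lysozyme gene of myeloid cells, was listed in all 6 libraries at 0.172 to 0.445 FPKM (log2 fold change 0.37, SE 0.27, adjusted p = 0.27), and *Cd68*, known from macrophages and lysosome-rich cells, stood at 3.06 to 4.45 FPKM (log2 fold change 0.23, SE 0.11, adjusted p = 0.1). *Cd68* passed higher after median ratio scaling (adjusted p = 0.016). Fibroblast markers stayed at or below 0.708 FPKM, among them *Col1a1*, which passed higher in Tyr-H cells (log2 fold change 0.71, SE 0.21, adjusted p = 0.017) but not without Tyr-H library 3 (adjusted p = 0.069), and *Col1a2*, which passed lower (log2 fold change -0.91, SE 0.24, adjusted p = 0.0087). The part of these markers in the results was not tested. Keratinocyte markers stayed at or below 0.0386 FPKM, and of 4 endothelial markers only *Pecam1* was listed, at up to 0.0540 FPKM.

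Many of the interferon-stimulated genes were higher in Tyr-H cells, unevenly between and within families. With a call defined as a limma adjusted p of at most 0.05 and at least a doubling or halving on the log2(FPKM + 0.1) scale, 20 of the 43 tested genes (46.5%) were called with higher values in Tyr-H cells and 0 with lower values. Across all tested genes 8.75% were called, 2.96% higher and 5.78% lower (425 and 829 genes). After median ratio scaling the shares higher and lower were 3.8% and 4.05% (544 and 580 genes), and 26 of the interferon-stimulated genes were then called higher. By adjusted p alone 32 of the 43 were higher, 2 (*Ifit2* and *Herc6*) were lower and 9 did not pass, against 17.9% higher and 39.9% lower among all tested genes (27.9% and 27.0% after median ratio scaling, where 35 and 1 of the interferon-stimulated genes passed). Every Tyr-H library lay above every Tyr-L library for 34 genes (20.2% of all tested genes) and below for 2 (43.8% of all tested genes), while for 7 the groups overlapped. The median log2 fold change was 0.98, from -0.38 for *Ifit2* to 2.47 for *Ifi44*, and 40 of the 43 values were above 0. The median of all tested genes was -0.15, and -0.01 after median ratio scaling, so each fold change stands about 0.15 higher relative to the bulk of the transcriptome. In RNA from a bulk culture, fewer cells expressing a gene and less RNA per cell cannot be told apart.

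**Figure D1:**
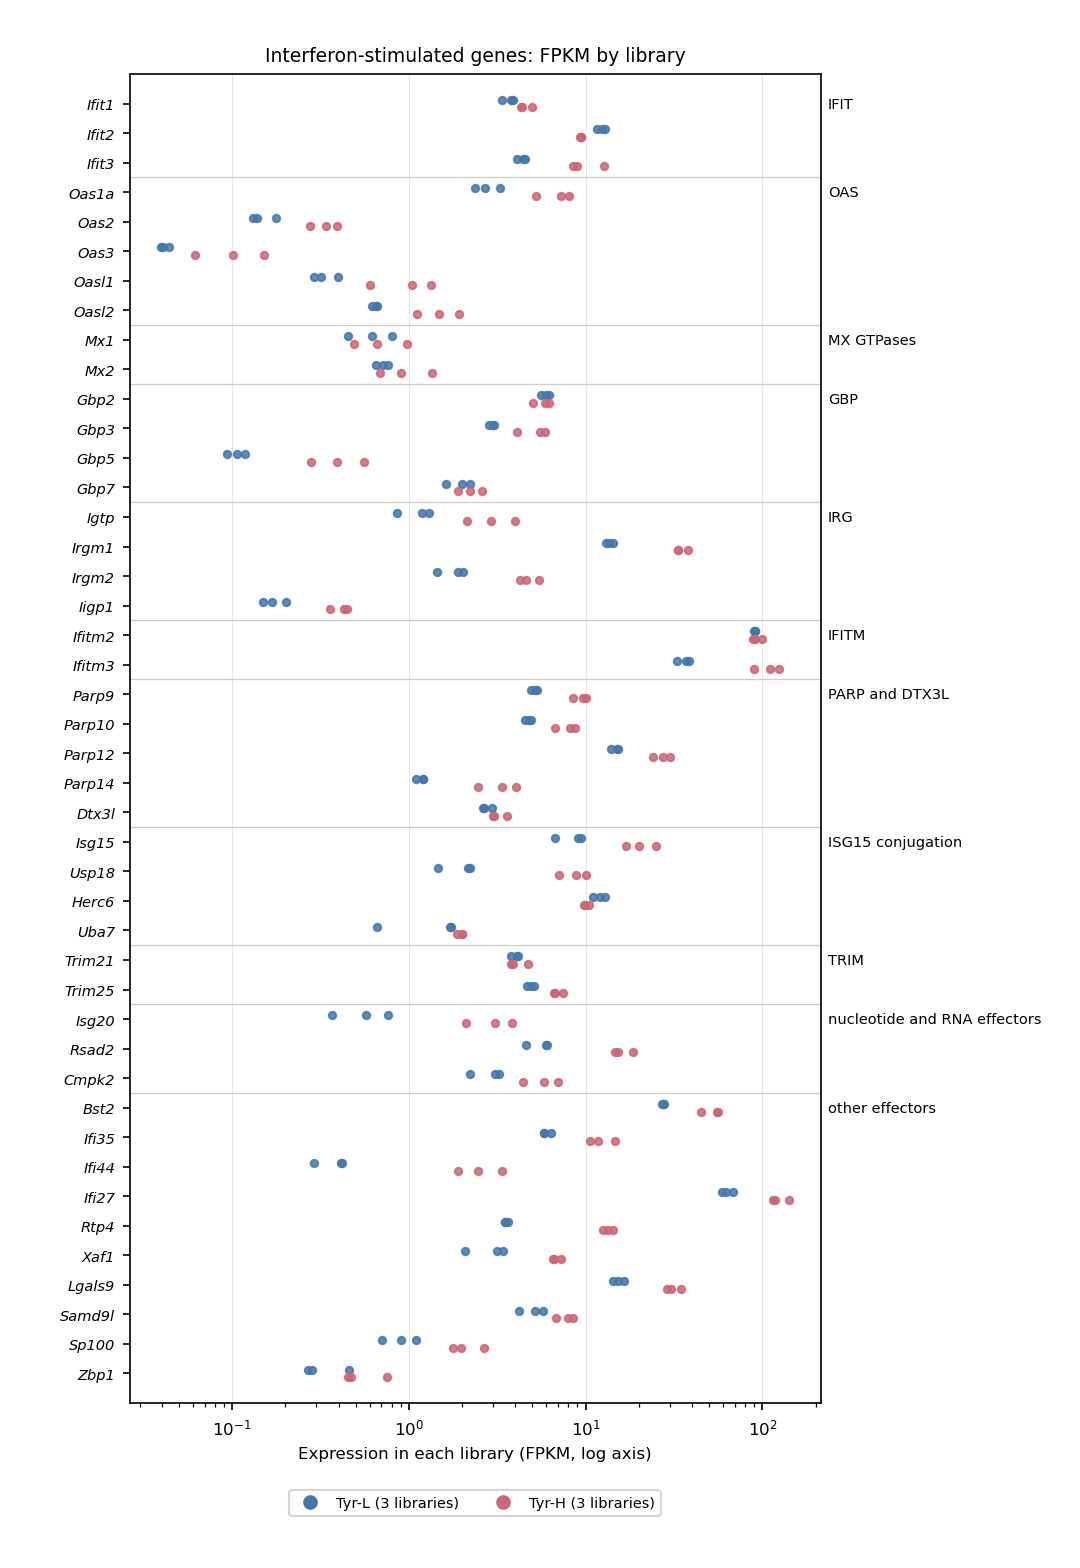
Expression of the 44 listed interferon-stimulated genes in each of the 6 libraries, on a log axis of FPKM, ordered by family. Each point is 1 library, blue for Tyr-L and red for Tyr-H. The groups separate for every gene shown of the OAS and IRG families but overlap for *Mx1*, *Mx2*, *Gbp2*, *Gbp7*, *Ifitm2*, *Trim21* and *Zbp1*.

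**Figure D2:**
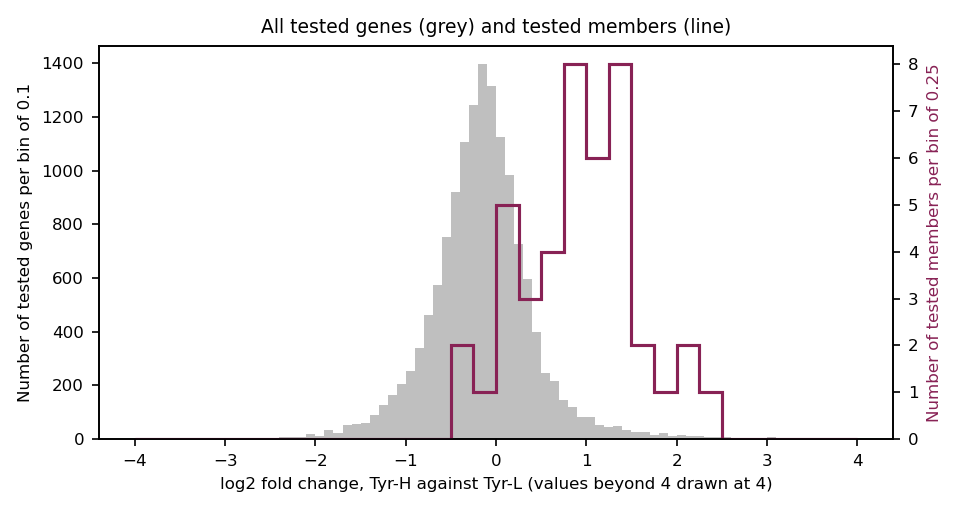
Distribution of log2 fold changes (Tyr-H against Tyr-L) of the 14336 tested genes as grey bars on the left axis and of the 43 tested interferon-stimulated genes as a line on the right axis. The median of all genes is -0.15, and that of the interferon-stimulated genes is 0.98.

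The families spanned a wide range of levels. In Tyr-L cells *Ifitm2* (90.7 ± 0.847 FPKM), *Ifi27* (63.5 ± 4.78 FPKM) and *Ifitm3* (36.2 ± 2.85 FPKM, SD, n = 3) were the most abundant, and the values of these neighbours did not overlap. In Tyr-H cells the order was *Ifi27*, *Ifitm3* and *Ifitm2*, and each neighbouring pair overlapped between libraries. *Oas3*, *Gbp5*, *Oas2* and *Iigp1* were the least abundant in both groups, with means of at most 0.412 FPKM. At these levels a value rested on few fragments, roughly 7 to 42 for *Gbp5*, 10 to 31 for *Oas2* and 9 to 28 for *Iigp1* at a depth of 20000000 fragments. Summed over the 44 listed genes, expression was 359, 375 and 392 FPKM in Tyr-L libraries 1 to 3 and 607, 663 and 756 FPKM in Tyr-H libraries 1 to 3, a sum to which *Ifi27*, *Ifitm2* and *Ifitm3* contributed most.

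The promoter windows of many of these genes held the letters of these elements. RefSeq promoter windows of 300 bases, from 250 bases before to 50 bases after the start on GRCm38.p6, were matched for 34 of the 45 genes. The ISRE core, the letters GAAA on both sides of any 2 bases, searched on both strands with overlapping matches counted, was present in 18 of them (52.9%) and in 3.99% of 27025 genes. The GAS pattern TTCNNNGAA, which reads the same on both strands, was present in 10 (29.4%) and in 9.55% of genes. Among the genes called higher 10 of 17 matched genes (58.8%) held the ISRE core, and among the tested genes not called 7 of 15 (46.7%) held it. The GAS pattern was present in 7 of the 17 (41.2%) and in 3 of the 15 (20%). Neither difference was tested. A match to these letters is a description and not a binding site. The members without a window were *Zbp1*, *Mx1*, *Usp18*, *Mx2*, *Parp10*, *Parp14*, *Parp9*, *Rtp4*, *Ifi27*, *Iigp1* and *Oas2*. Shown here are stretches of 80 bases from 3 genes called higher in Tyr-H cells, chosen because the core stands alone in *Rsad2*, overlaps itself in *Irgm1* and is repeated in *Isg15*. They are written 5′ to 3′ along the gene's strand, with the ISRE core in capitals.
Isg15, chr4:156200844-156200923, minus strand: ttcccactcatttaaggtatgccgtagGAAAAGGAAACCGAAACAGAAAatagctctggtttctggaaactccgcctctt
Irgm1, chr11:48871421-48871500, minus strand: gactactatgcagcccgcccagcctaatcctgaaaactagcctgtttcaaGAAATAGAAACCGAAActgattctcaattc
Rsad2, chr12:26456523-26456602, minus strand: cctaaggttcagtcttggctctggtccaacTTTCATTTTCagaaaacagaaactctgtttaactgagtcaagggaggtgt

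The IFIT genes, a cluster on chromosome 19 whose products bind viral RNA and assemble with each other through tetratricopeptide repeats, moved in different directions. *Ifit3*, the scaffold partner of the family, stood at 4.11, 4.45 and 4.53 FPKM in Tyr-L against 8.47, 8.92 and 12.7 FPKM in Tyr-H cells. It was about 2.3-fold higher in Tyr-H cells by mean FPKM, and all Tyr-H libraries lay above all Tyr-L libraries (log2 fold change 1.16, SE 0.14, adjusted p = 8.6e-05). *Ifit1*, which binds RNA with an unmethylated cap, stood at 3.78, 3.36 and 3.87 FPKM in Tyr-L against 4.32, 4.36 and 5.01 FPKM in Tyr-H cells, a separation that passed the adjusted p under the fold threshold (log2 fold change 0.31, SE 0.10, adjusted p = 0.021). It no longer passed without Tyr-L library 2 (adjusted p = 0.072), without Tyr-H library 3 (0.075) or with each library rescaled to the same total (0.081). *Ifit2*, a partner of both that binds AU-rich RNA, stood at 12.3, 11.6 and 12.8 FPKM in Tyr-L against 9.41, 9.48 and 9.30 FPKM in Tyr-H cells. Its Tyr-H values lay below all Tyr-L values, and it fell by 0.38 on the log2 scale (SE 0.06, adjusted p = 0.00031), the lowest value of the 43 genes, and kept this direction under every scaling tried (-0.23 after median ratio scaling). *Ifit2* and *Ifit3* lie on the plus strand 7111 bases apart, at chr19:34550694-34576419 and chr19:34583531-34588731. The ratio of *Ifit3* to *Ifit2* was 0.334, 0.383 and 0.354 in the Tyr-L libraries and 0.9, 0.941 and 1.37 in the Tyr-H libraries, so the order of the 2 genes changed only in Tyr-H library 3. Of the sequence of *Ifit3*, 31.7% of its stretches of 100 bases also occur in *Ifit3b*, so reads of these paralogs may have been split. The promoter windows of the IFIT genes differed in the ISRE core, which occurred in *Ifit3*, in *Ifit1* and in neither window of *Ifit2*. Of the 17 matched genes called higher 10 held the core. Those without it included *Ifi44* and *Isg20*, which had the largest and second largest log2 fold changes of the list. A relation between the core and the direction was not tested. The stretches below show *Ifit3* and *Ifit2*, with the ISRE core in capitals.
Ifit3, chr19:34583354-34583433, plus strand: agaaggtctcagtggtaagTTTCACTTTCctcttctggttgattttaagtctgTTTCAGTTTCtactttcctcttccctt
Ifit2, chr19:34550519-34550598, plus strand: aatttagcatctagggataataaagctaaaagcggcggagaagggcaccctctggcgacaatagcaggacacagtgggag

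The 5 OAS genes followed here, of a family whose enzymes turn double-stranded RNA into a signal of short oligoadenylates, all had higher values in Tyr-H cells. Of the 4 tested genes 3 were called and the fourth passed the adjusted p, with a median log2 fold change of 1.17. Among all tested genes 2.96% were called higher and 17.9% passed higher. *Oas1a*, the most abundant catalytic member, stood at 2.36, 2.70 and 3.28 FPKM in Tyr-L against 5.26, 7.29 and 8.07 FPKM in Tyr-H cells (log2 fold change 1.26, SE 0.17, adjusted p = 0.00016). *Oasl1*, an OAS-like protein known to restrain translation of *Irf7*, stood at 0.317, 0.399 and 0.291 FPKM in Tyr-L against 1.33, 0.6 and 1.04 FPKM in Tyr-H cells. Its lowest Tyr-H value was in library 2 and still above the highest Tyr-L value (log2 fold change 1.27, SE 0.28, adjusted p = 0.0033). *Oasl2*, which keeps synthetase activity, stood at 0.620, 0.665 and 0.653 FPKM in Tyr-L against 1.11, 1.48 and 1.92 FPKM in Tyr-H cells (log2 fold change 1.07, SE 0.20, adjusted p = 0.0014). Without Tyr-H library 3 its log2 fold change was 0.89, under the fold threshold. *Oas2* stood at 0.131, 0.177 and 0.139 FPKM in Tyr-L against 0.340, 0.277 and 0.395 FPKM in Tyr-H cells and passed the adjusted p at a log2 fold change of 0.81 (SE 0.26, adjusted p = 0.024), but not without Tyr-L library 1 or 3 or without Tyr-H library 1 or 3 (adjusted p = 0.056 to 0.085). *Oas3*, untested, stood at 0.0440, 0.0396 and 0.0407 FPKM in Tyr-L against 0.151, 0.0614 and 0.101 FPKM in Tyr-H cells, values that rest on roughly 4 to 14 fragments. Of the sequence of *Oas1a*, 40.9% of its stretches of 100 bases occur in *Oas1g* as well, so its level is uncertain to that extent.

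The 4 IRG genes followed here, small GTPases that act on the vacuoles of intracellular pathogens, all had higher values in Tyr-H cells. All 4 genes passed the adjusted p (17.9% of all tested genes passed higher) and 3 were called higher (2.96% of all tested genes). Their log2 fold changes lay between 0.90 and 1.37. *Irgm1*, *Irgm2* and *Igtp* encode the regulatory members that guard the cell's own membranes. *Irgm1* stood at 13.0, 13.6 and 14.4 FPKM in Tyr-L against 33.5, 33.4 and 37.8 FPKM in Tyr-H cells, so that its Tyr-L and Tyr-H values lay far apart relative to their spread (log2 fold change 1.34, SE 0.06, adjusted p = 3.9e-07). *Irgm2* stood at 1.44, 1.89 and 2.01 FPKM in Tyr-L against 4.59, 4.23 and 5.42 FPKM in Tyr-H cells (log2 fold change 1.37, SE 0.14, adjusted p = 4.1e-05). *Igtp* stood at 0.853, 1.18 and 1.30 FPKM in Tyr-L against 2.15, 2.91 and 3.98 FPKM in Tyr-H cells (log2 fold change 1.34, SE 0.23, adjusted p = 0.00076). *Irgm2* and *Igtp* overlap on the same strand of chromosome 11, and reads of their shared exons may have been assigned to either. *Iigp1*, the one effector GTPase among the 4, stood at 0.203, 0.168 and 0.150 FPKM in Tyr-L against 0.432, 0.444 and 0.359 FPKM in Tyr-H cells, with no overlap between groups and a log2 fold change of 0.90 (SE 0.24, adjusted p = 0.0098). Summed over the 4 genes, IRG expression was 15.5 to 17.8 FPKM in Tyr-L and 40.6 to 47.5 FPKM in Tyr-H libraries, most of it *Irgm1*.

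The guanylate-binding proteins, large GTPases that coat pathogens and their vacuoles, split within 1 cluster on chromosome 3. *Gbp5*, known for promoting inflammasome assembly, was called higher, at 0.118, 0.0933 and 0.106 FPKM in Tyr-L against 0.390, 0.281 and 0.556 FPKM in Tyr-H cells (log2 fold change 1.27, SE 0.29, adjusted p = 0.0043), a call that was lost at a pseudocount of 1 FPKM. *Gbp3* stood at 2.83, 3.00 and 3.04 FPKM in Tyr-L against 5.50, 4.11 and 5.92 FPKM in Tyr-H cells and passed the adjusted p under the fold threshold (log2 fold change 0.77, SE 0.13, adjusted p = 0.00078). *Gbp2* stood at 5.63, 5.99 and 6.18 FPKM in Tyr-L against 5.05, 5.92 and 6.19 FPKM in Tyr-H cells, with overlapping groups (log2 fold change -0.06, SE 0.09, adjusted p = 0.61). Its sign depended on the scaling, at 0.09 after median ratio scaling and 0.13 after quantile normalization, and the adjusted p did not pass in either. *Gbp7*, of which 10.0% of the 100-base stretches are shared with other loci, stood at 1.63, 2.01 and 2.22 FPKM in Tyr-L against 1.89, 2.23 and 2.60 FPKM in Tyr-H cells and did not pass (log2 fold change 0.19, SE 0.16, adjusted p = 0.33). The ratio of *Gbp3* to *Gbp2*, genes 47392 bases apart at chr3:142560026-142573209 and chr3:142620602-142638008, was 0.503, 0.501 and 0.492 in Tyr-L and 1.09, 0.695 and 0.956 in Tyr-H libraries. Thus every Tyr-H ratio lay above the narrow range of the Tyr-L ratios. The ISRE core occurred in a window of each of the 4 GBP genes, including the 3 that were not called, but not in the other window of *Gbp3*. The stretches of *Gbp3* and *Gbp2* are shown, with the ISRE core in capitals, since both genes hold the core and differed in their values.
Gbp3, chr3:142559964-142560043, plus strand: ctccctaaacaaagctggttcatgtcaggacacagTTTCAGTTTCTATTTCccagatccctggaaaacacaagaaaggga
Gbp2, chr3:142620568-142620647, plus strand: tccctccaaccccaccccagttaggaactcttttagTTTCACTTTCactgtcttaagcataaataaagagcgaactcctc

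The IFITM genes, which encode small membrane proteins that block the entry of enveloped viruses, differed between genes of 1 cluster as the GBP genes did. *Ifitm3*, the endosomal member, stood at 33.0, 37.2 and 38.5 FPKM in Tyr-L against 89.3, 110.2 and 125 FPKM in Tyr-H cells. It was 2.98-fold higher in Tyr-H cells by mean FPKM, and the groups lay far apart (log2 fold change 1.56, SE 0.11, adjusted p = 3.6e-06). *Ifitm2* stood at 91.3, 89.7 and 91.1 FPKM in Tyr-L against 88.8, 90.3 and 99.5 FPKM in Tyr-H cells, with overlapping groups (log2 fold change 0.03, SE 0.04, adjusted p = 0.56), and its sign turned to -0.06 when each library was rescaled to the same total, while it passed after median ratio scaling (adjusted p = 0.0059). *Ifitm1* was listed in no library. The 2 listed genes lie 53598 bases apart on the minus strand of chromosome 7, at chr7:140954837-140955987 and chr7:141009586-141010770. The ratio of *Ifitm3* to *Ifitm2* was 0.362, 0.414 and 0.423 in Tyr-L and 1.01, 1.22 and 1.25 in Tyr-H libraries, which moved *Ifitm3* from well below *Ifitm2* to above it in every Tyr-H library. Of *Ifitm2*, 34.9% of the 100-base stretches are shared with the overlapping locus Gm45717 and with Gm8865 and Gm11951, so its level could include reads of these. Both genes held the ISRE core, *Ifitm2* upstream of its start and *Ifitm3* just downstream, and both are shown with it in capitals.
Ifitm2, chr7:140955962-140956041, minus strand: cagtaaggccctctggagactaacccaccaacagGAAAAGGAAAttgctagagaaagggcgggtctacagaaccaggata
Ifitm3, chr7:141010714-141010743, minus strand: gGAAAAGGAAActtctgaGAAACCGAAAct

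The ADP-ribosyltransferases of the interferon response, which transfer ADP-ribose to proteins and nucleic acids, had higher values in Tyr-H cells by an intermediate amount. All 5 genes of this group separated without overlap, 4 passed the adjusted p and only *Parp14* was called. Of all tested genes 20.2% separated with higher Tyr-H values, 17.9% passed higher and 2.96% were called higher. *Parp14* stood at 1.1, 1.20 and 1.21 FPKM in Tyr-L against 2.47, 3.37 and 4.06 FPKM in Tyr-H cells (log2 fold change 1.40, SE 0.17, adjusted p = 0.00011). *Parp12*, the most abundant, had 14.7 ± 0.758 FPKM in Tyr-L against 27.2 ± 3.05 FPKM in Tyr-H cells (log2 fold change 0.88, SE 0.08, adjusted p = 1.6e-05). *Parp9* had 5.13 ± 0.210 FPKM in Tyr-L against 9.41 ± 0.795 FPKM in Tyr-H cells (log2 fold change 0.86, SE 0.08, adjusted p = 1.7e-05), and *Parp10*, a mono-ADP-ribosyltransferase, had 4.74 ± 0.192 FPKM in Tyr-L against 7.87 ± 1.04 FPKM in Tyr-H cells (log2 fold change 0.71, SE 0.10, adjusted p = 0.00023). After median ratio scaling *Parp9* and *Parp12* reached the fold threshold, at 1.01 and 1.03. *Dtx3l*, the ubiquitin ligase that works in a complex with PARP9, stood at 2.63, 2.95 and 2.67 FPKM in Tyr-L against 3.01, 3.03 and 3.58 FPKM in Tyr-H cells and did not pass (log2 fold change 0.21, SE 0.11, adjusted p = 0.12), except after median ratio scaling (adjusted p = 0.017) or quantile normalization (0.012). *Parp9* and *Dtx3l* start next to each other on opposite strands of chromosome 16 and their annotated exons overlap. Whether counting used the strand is not given in the sources used here, so reads of the overlap cannot be told apart. The ratio of *Parp9* to *Dtx3l* was 1.87, 1.74 and 2.00 in Tyr-L and 2.83, 3.30 and 2.71 in Tyr-H libraries.

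**Figure D3:**
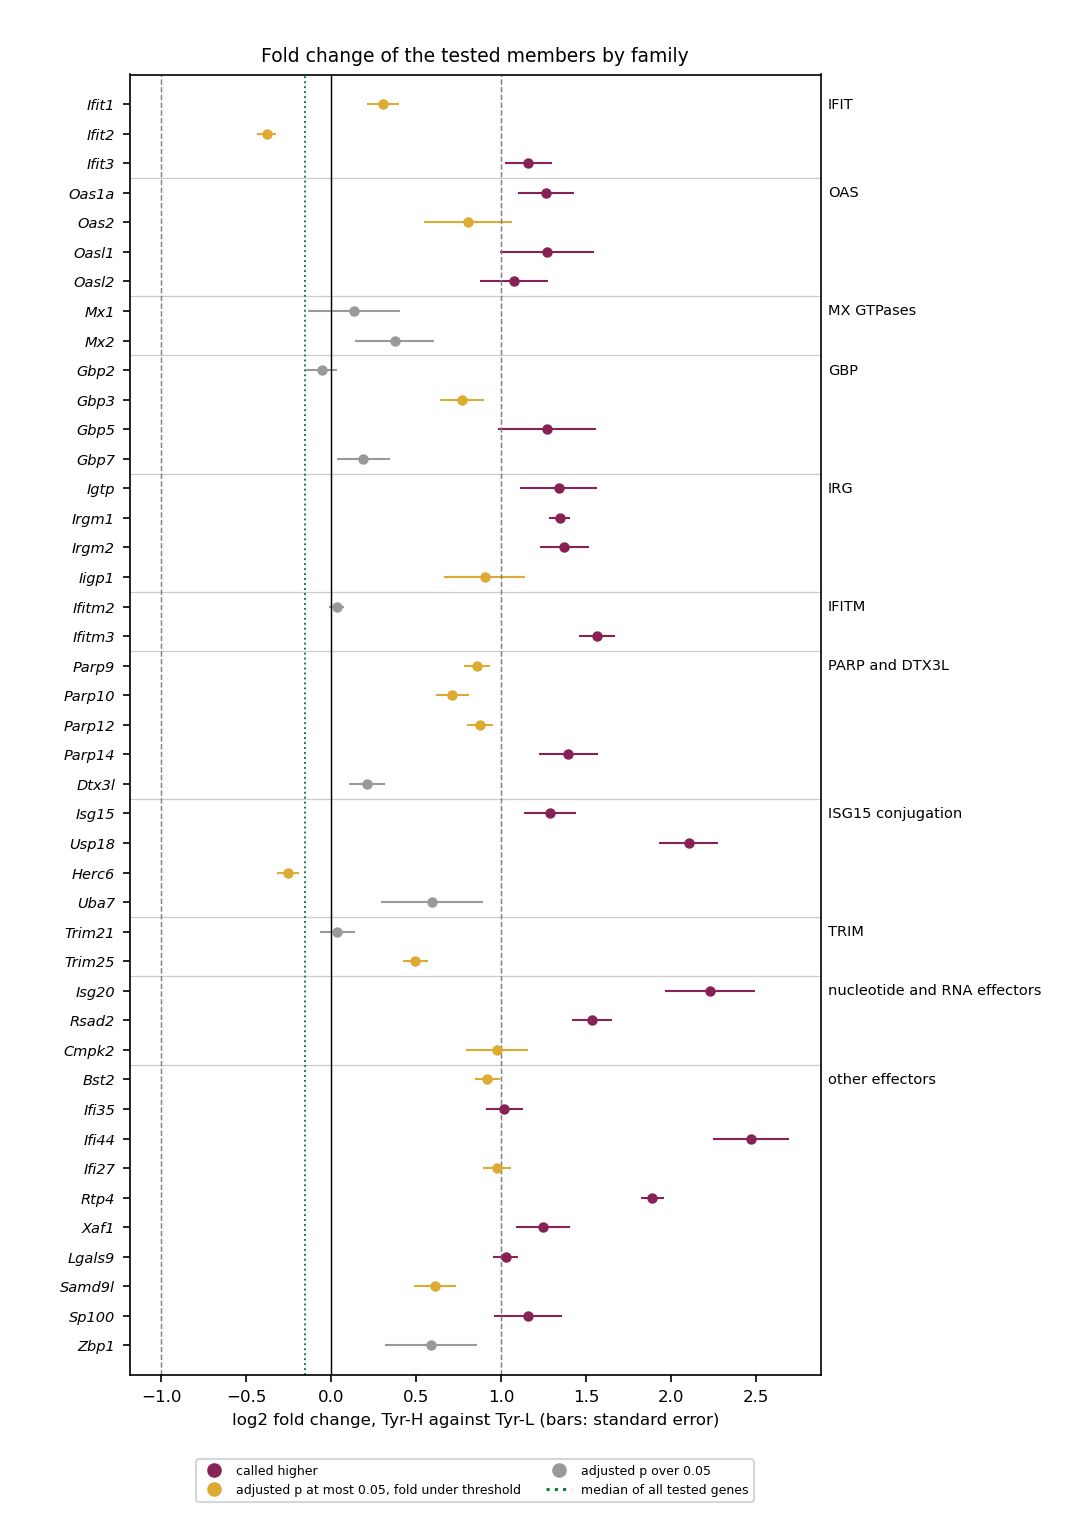
Log2 fold change (Tyr-H against Tyr-L) of the 43 tested genes with its standard error, ordered by family, with the fold threshold as dashed lines and the median of all tested genes as a dotted line. Called genes are purple, genes past the adjusted p alone yellow and the others grey, and the IRG family lies between 0.90 and 1.37 while the IFIT family spans -0.38 to 1.16.

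Among the genes of ISG15 conjugation the modifier and its protease were called higher while the ligase fell and the activating enzyme did not pass. *Isg15*, the ubiquitin-like modifier, stood at 6.67, 9.03 and 9.42 FPKM in Tyr-L against 17.0, 19.9 and 24.9 FPKM in Tyr-H cells (log2 fold change 1.29, SE 0.15, adjusted p = 8.7e-05). *Usp18*, which removes ISG15 from proteins and also restrains signalling at the type I interferon receptor, stood at 1.46, 2.23 and 2.16 FPKM in Tyr-L against 7.07, 8.78 and 10.1 FPKM in Tyr-H cells. It was 4.44-fold higher by mean FPKM, the third largest log2 fold change of the list (log2 fold change 2.1, SE 0.17, adjusted p = 1e-05). *Herc6*, the main ISG15 ligase of the mouse, stood at 12.9, 11.1 and 12.1 FPKM in Tyr-L against 9.85, 10.4 and 9.89 FPKM in Tyr-H cells. It fell by 0.25 on the log2 scale with no overlap between groups (SE 0.07, adjusted p = 0.0086), a difference that was -0.10 and no longer passed after median ratio scaling (adjusted p = 0.21). *Uba7*, the enzyme that activates ISG15, stood at 0.662, 1.74 and 1.71 FPKM in Tyr-L against 1.88, 1.99 and 2.00 FPKM in Tyr-H cells (log2 fold change 0.59, SE 0.30, adjusted p = 0.12). The Tyr-L value of library 1 lay far below the others, and without that library the log2 fold change was 0.17.

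The nucleotide and RNA effectors all passed the adjusted p with higher values in Tyr-H cells, against 17.9% of all tested genes. *Isg20*, an exonuclease that degrades single-stranded RNA, stood at 0.758, 0.570 and 0.369 FPKM in Tyr-L against 2.12, 3.07 and 3.84 FPKM in Tyr-H cells and had the second largest log2 fold change (log2 fold change 2.23, SE 0.26, adjusted p = 8.4e-05), on roughly 8 to 84 fragments. *Rsad2* encodes viperin, which makes a chain-terminating nucleotide, and stood at 4.58, 5.94 and 6.04 FPKM in Tyr-L against 14.6, 15.3 and 18.5 FPKM in Tyr-H cells (log2 fold change 1.53, SE 0.12, adjusted p = 7.1e-06). *Cmpk2*, the nucleotide kinase next to it on chromosome 12, stood at 2.23, 3.09 and 3.24 FPKM in Tyr-L against 4.40, 5.79 and 7.02 FPKM in Tyr-H cells, just under the fold threshold (log2 fold change 0.98, SE 0.18, adjusted p = 0.0014). The MX GTPases, which trap viral nucleocapsids, did not pass. *Mx1* stood at 0.622, 0.451 and 0.806 FPKM in Tyr-L against 0.486, 0.660 and 0.970 FPKM in Tyr-H cells (log2 fold change 0.13, SE 0.27, adjusted p = 0.69), and its sign turned to -0.05 without Tyr-L library 2 and to -0.09 without Tyr-H library 3. *Mx2*, annotated as a polymorphic pseudogene, stood at 0.718, 0.652 and 0.762 FPKM in Tyr-L against 0.691, 1.36 and 0.899 FPKM in Tyr-H cells (log2 fold change 0.37, SE 0.23, adjusted p = 0.2). Both MX genes are known to be defective in the C57BL/6 strain. Of the TRIM ubiquitin ligases, *Trim25*, which acts on the RNA sensor RIG-I, had 4.89 ± 0.211 FPKM in Tyr-L against 6.94 ± 0.460 FPKM in Tyr-H cells and passed under the fold threshold (log2 fold change 0.50, SE 0.08, adjusted p = 0.00041). *Trim21*, a cytosolic antibody receptor, had 4 ± 0.202 FPKM in Tyr-L against 4.12 ± 0.515 FPKM in Tyr-H cells and did not pass (log2 fold change 0.04, SE 0.10, adjusted p = 0.77).

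Of the other 10 effectors 6 were called higher, 3 passed the adjusted p alone and *Zbp1* did not pass. For 9 of the 10 every Tyr-H value lay above every Tyr-L value, and for *Zbp1* the groups overlapped. Over all tested genes 2.96% were called higher, 17.9% passed higher and 20.2% separated in this way. *Ifi44*, a cytoplasmic protein with antiviral activity, stood at 0.291, 0.419 and 0.411 FPKM in Tyr-L against 1.89, 2.47 and 3.36 FPKM in Tyr-H cells. This was 6.88-fold higher by mean FPKM and the largest log2 fold change of the list (log2 fold change 2.47, SE 0.22, adjusted p = 1.7e-05). *Rtp4*, which restrains RNA virus replication, stood at 3.64, 3.5 and 3.49 FPKM in Tyr-L against 12.6, 13.4 and 14.3 FPKM in Tyr-H cells, the smallest adjusted p of the list (log2 fold change 1.89, SE 0.07, adjusted p = 1.7e-07). *Xaf1*, an antagonist of the apoptosis inhibitor XIAP, stood at 2.09, 3.39 and 3.14 FPKM in Tyr-L against 6.59, 6.58 and 7.29 FPKM in Tyr-H cells (log2 fold change 1.25, SE 0.16, adjusted p = 0.00014). *Sp100*, a component of PML nuclear bodies, stood at 0.904, 0.701 and 1.1 FPKM in Tyr-L against 1.97, 1.77 and 2.67 FPKM in Tyr-H cells (log2 fold change 1.16, SE 0.20, adjusted p = 0.00089). *Lgals9*, which encodes galectin-9, stood at 14.2, 15.2 and 16.4 FPKM in Tyr-L against 30.4, 28.8 and 34.6 FPKM in Tyr-H cells (log2 fold change 1.03, SE 0.08, adjusted p = 5e-06). *Ifi35* stood at 5.81, 6.35 and 5.84 FPKM in Tyr-L against 10.6, 11.8 and 14.7 FPKM in Tyr-H cells (log2 fold change 1.02, SE 0.11, adjusted p = 4.6e-05). *Ifi35* and *Lgals9* lay close to the fold threshold and lost the call without Tyr-L library 1, without Tyr-H library 3, at a pseudocount of 1 FPKM and with each library rescaled to the same total, while their values still separated by group. *Bst2*, the virus tether tetherin, had 27.4 ± 0.376 FPKM in Tyr-L against 52.1 ± 6.00 FPKM in Tyr-H cells (log2 fold change 0.92, SE 0.07, adjusted p = 8.4e-06). *Ifi27* had 63.5 ± 4.78 FPKM in Tyr-L against 125 ± 14.8 FPKM in Tyr-H cells (log2 fold change 0.98, SE 0.08, adjusted p = 1e-05), and *Samd9l*, a restriction factor for poxviruses, had 5.05 ± 0.794 FPKM in Tyr-L against 7.74 ± 0.850 FPKM in Tyr-H cells (log2 fold change 0.61, SE 0.12, adjusted p = 0.0021). *Zbp1*, a sensor of Z-form nucleic acid that can start necroptosis, stood at 0.268, 0.460 and 0.283 FPKM in Tyr-L against 0.450, 0.472 and 0.75 FPKM in Tyr-H cells (log2 fold change 0.59, SE 0.27, adjusted p = 0.088), and it passed in 3 of the alternatives.

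Within each group the interferon-stimulated genes varied together between libraries. Tyr-H library 3 held the highest of the 3 Tyr-H values for 36 of the 43 tested genes (83.7%) and for 32.8% of all tested genes. Tyr-H library 1 held the lowest for 32 (74.4%), against 38.2% of all tested genes. In Tyr-L cells library 3 was highest for 25 genes (58.1%, against 31.2%) and library 1 lowest for 29 (67.4%, against 33.4%). The median deviation from the group mean ran from -0.14 in Tyr-H library 1 to 0.19 in Tyr-H library 3 and from -0.07 to 0.06 between the Tyr-L libraries, on the log2 scale. The 43 genes are thus not independent replicates of the comparison. Without Tyr-H library 3, 15 of them were called higher, and *Ifit3* (0.98), *Oasl2* (0.89), *Ifi35* (0.89), *Lgals9* (0.95) and *Sp100* (0.99) fell under the fold threshold. Without Tyr-L library 1, 18 were called higher. At a pseudocount of 1 FPKM the calls of *Oasl1*, *Oasl2*, *Gbp5*, *Igtp*, *Parp14*, *Ifi35*, *Lgals9* and *Sp100* were lost. The calls of 11 genes were kept in every setting run, namely *Oas1a*, *Irgm1*, *Irgm2*, *Ifitm3*, *Isg15*, *Usp18*, *Isg20*, *Rsad2*, *Ifi44*, *Rtp4* and *Xaf1*. For 12 of the 43 genes an annotated exon overlapped another listed gene or at least 10% of the 100-base stretches occurred elsewhere, and of the 31 others, some of which share shorter parts of their sequence, 15 were called higher. Besides the paralogs and overlaps given above these were *Herc6*, *Rtp4*, *Uba7* and *Parp10*, whose exons overlap Gm45193, Gm45338, Gm20661 and *Plec*.

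**Figure D4:**
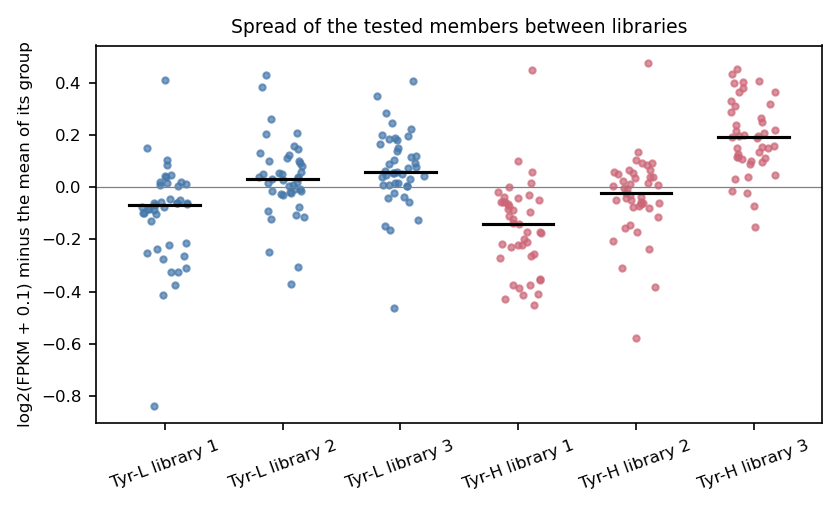
Deviation of each of the 43 tested genes from the mean of its group, on the log2(FPKM + 0.1) scale, by library, with the median as a black bar. Tyr-H library 1 has a median of -0.14 and Tyr-H library 3 a median of 0.19, while the Tyr-L medians lie between -0.07 and 0.06.

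Genes upstream of the effectors were taken from a list of 47 names, of which 37 were listed and 33 tested. Of these, 3 were called higher and 0 lower. By adjusted p alone 12 were higher and 10 lower. Of all tested genes 2.96% were called higher and 5.78% lower, and 17.9% and 39.9% passed the adjusted p higher and lower, so the 10 lower genes were fewer than that share of the 33. After median ratio scaling 18 passed higher and 4 lower, against 27.9% and 27.0% of all tested genes. Among the ligands, *Ifna1*, *Ifna2*, *Ifna4*, *Ifna5*, *Ifne*, *Ifng*, *Ifnl2* and *Ifnl3* were listed in no library. *Ifnb1*, the gene of interferon-β, was listed only in Tyr-H library 1, at 0.0607 FPKM, and *Ifnk* only in Tyr-L library 2, at 0.0595 FPKM. The receptor subunit genes were listed in every library. *Ifnar1* had 20.4 ± 1.25 FPKM in Tyr-L against 14.9 ± 1.08 FPKM in Tyr-H cells and fell (log2 fold change -0.45, SE 0.07, adjusted p = 0.00033), whereas *Ifnar2* had 12.7 ± 0.111 FPKM in Tyr-L against 12.5 ± 0.398 FPKM in Tyr-H cells and did not pass (log2 fold change -0.02, SE 0.05, adjusted p = 0.79), its sign turning under median ratio scaling and quantile normalization, where it passed higher (adjusted p = 0.037 and 0.042). *Il10rb* fell as well (log2 fold change -0.60, SE 0.06, adjusted p = 2.1e-05), *Ifngr2* passed at a small difference (log2 fold change 0.14, SE 0.05, adjusted p = 0.035) but not in 7 of the alternatives, up to an adjusted p of 0.54 with each library rescaled to the same total, and *Ifngr1* did not pass (log2 fold change 0.11, SE 0.07, adjusted p = 0.21) except after median ratio scaling or quantile normalization. *Ifnlr1* stood at 0.0214 to 0.154 FPKM and was not tested. *Irf9*, whose protein gives ISGF3 its DNA contact, had 6.65 ± 0.941 FPKM in Tyr-L against 12.5 ± 1.26 FPKM in Tyr-H cells and passed under the fold threshold (log2 fold change 0.90, SE 0.11, adjusted p = 9.9e-05), and annotated exons of *Rnf31* overlap it on the same strand. *Stat2* had 2.57 ± 0.187 FPKM in Tyr-L against 3.25 ± 0.471 FPKM in Tyr-H cells and did not pass (log2 fold change 0.32, SE 0.12, adjusted p = 0.052), though it passed in 5 of the alternatives.

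The called upstream genes were *Irf5*, *Irf7* and *Ddx58*. *Irf7*, the factor that amplifies type I interferon transcription and is itself an interferon target, stood at 1.32, 1.34 and 1.33 FPKM in Tyr-L against 3.64, 4.08 and 5.73 FPKM in Tyr-H cells (log2 fold change 1.65, SE 0.16, adjusted p = 2.3e-05). Annotated exons of *Irf7* overlap *Phrf1* on the other strand. *Irf5* stood at 0.0956, 0.0569 and 0.146 FPKM in Tyr-L against 1.65, 0.874 and 1.32 FPKM in Tyr-H cells (log2 fold change 2.77, SE 0.28, adjusted p = 3.6e-05), and its annotated exons overlap *Tnpo3* on the other strand. The *Irf5* values rest on roughly 3 to 74 fragments, and it was not tested with a mean of at least 1 FPKM. *Ddx58*, which encodes the RNA sensor RIG-I, stood at 6.69, 8.18 and 9.12 FPKM in Tyr-L against 20.5, 24.5 and 26.2 FPKM in Tyr-H cells (log2 fold change 1.56, SE 0.12, adjusted p = 6.2e-06). *Irf1* had 6.25 ± 0.0612 FPKM in Tyr-L against 9.98 ± 1.37 FPKM in Tyr-H cells and passed under the fold threshold (log2 fold change 0.66, SE 0.09, adjusted p = 0.00026). Of all tested genes 17.9% passed higher and 39.9% lower (27.9% and 27.0% after median ratio scaling). Of the 10 tested sensors and adaptors 5 passed higher and 4 lower, or 6 and 2 after that scaling. Before scaling the 4 lower ones were near the share of all tested genes. The lower ones included *Mb21d1*, the older symbol of the DNA sensor cGAS, named after its values were seen (the current symbols *Cgas* and *Sting1* were listed in no library), with 4.17 ± 0.165 FPKM in Tyr-L against 2.54 ± 0.305 FPKM in Tyr-H cells (log2 fold change -0.70, SE 0.11, adjusted p = 0.00042). Among the 6 negative regulators 0 were called and 1 passed lower, while after median ratio scaling 1 passed higher and 0 lower.

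**Figure D5:**
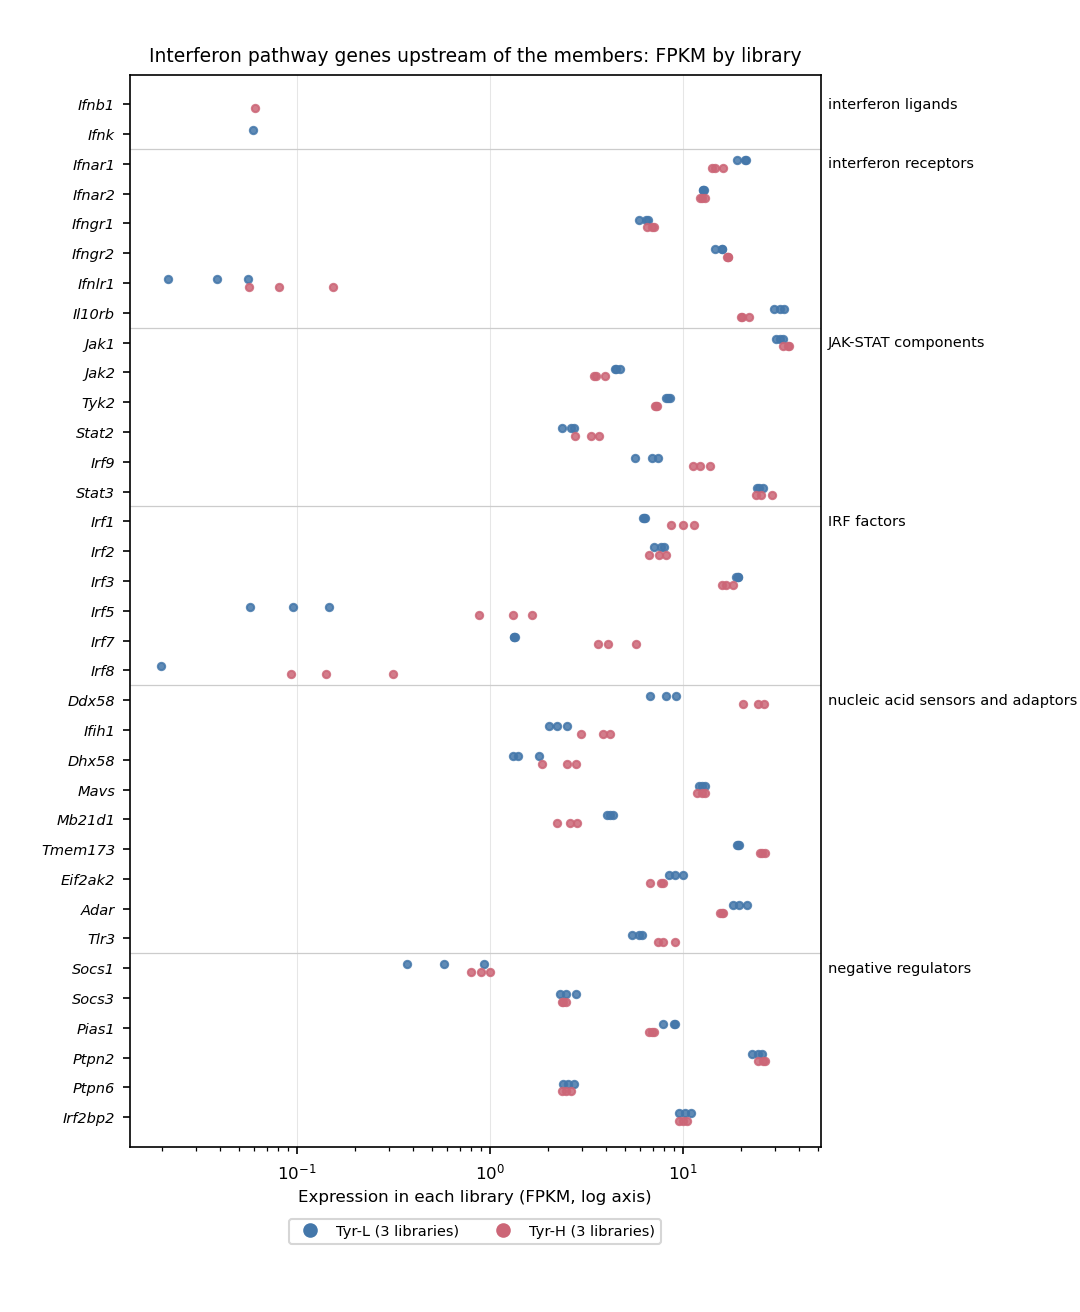
Expression of 35 of the 37 listed upstream genes in each library, on a log axis of FPKM, grouped by role, with values of 0 not drawn. Each point is 1 library, blue for Tyr-L and red for Tyr-H, and both listed ligands appear in a single library near 0.06 FPKM while *Irf5*, *Irf7* and *Ddx58* separate by group.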

How the data were processed

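RNA of B16 cells was sequenced as poly(A)-selected libraries in paired reads, 3 libraries of Tyr-L and 3 of Tyr-H cells. Per the labels, the authors trimmed reads with Trimmomatic and aligned them with HISAT2 to GRCm38.p6 (HISAT is named as well). The program that computed FPKM, its annotation and its strand setting are not given in the sources used here. The deposited FPKM values were joined by gene identifier, with unlisted genes set to 0. The 14336 genes whose mean over the libraries reached 0.1 FPKM were fitted on log2(FPKM + 0.1) with limma 3.58.1 in R 4.3.3, with a term for the group, a trended prior variance and two-sided tests adjusted by Benjamini-Hochberg across the whole table. Genes were called at an adjusted p no greater than 0.05 together with a log2 fold change of 1 or more in size. Fold changes on this scale understate changes of low genes. An exact permutation test of 3 against 3 cannot go below p = 0.1 and was not used. A simulation with noise drawn independently for each gene was also run. Nothing is concluded from it here, since the interferon-stimulated genes varied together between libraries.

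Depth was estimated from the steps between the lowest values of genes with 1 transcript of at least 1500 bases. Fragments behind a value were approximated from the longest transcript at 20000000 fragments. Positions and exon overlaps were taken from GENCODE M21 on GRCm38, and shared sequence was counted in stretches of 100 bases. The 45 genes and the gene lists were chosen with earlier results of these data known. All 45 were named, of the other lists the called genes, ligands, receptors, *Stat2*, *Irf9*, *Irf7*, *Irf1* and unlisted genes, with *Mb21d1*, *Ifit3b* and *Oas1g* added after their values were seen. The values of 2 upstream genes are not reported here, though the counts over the list hold them. Alternatives changed the pseudocount, the filter, the scaling, the variance trend, the fold threshold, a replicate block and each library in turn.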

Additional observations from a re-analysis of the deposited data

How the results depend on the processing

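The 3 libraries per group, FPKM without counts and an unstated quantifier limit these values, and genes under about 0.5 FPKM rest on few fragments. Of the 20 genes called higher, 11 kept the call in every setting run. At a pseudocount of 1 FPKM 12 of the interferon-stimulated genes were called, all higher, with a median log2 fold change of 0.72. The medians of the OAS, GBP and IRG families were then 0.58, 0.24 and 0.98, 0 other family genes were called higher, and 388 of all genes were called (185 higher, 203 lower). With a mean of at least 1 FPKM 640 genes were called (247 higher, 393 lower), 0 other family genes were higher, and the GBP median was 0.19. Median ratio scaling gave 5 other family genes higher and medians of 0.46 for IFIT, 0.95 for IFITM and 1.01 for PARP. Quantile normalization gave 508 genes lower, 5 other family genes higher and medians of 0.47 for IFIT, 0.65 for GBP and 1.00 for PARP, with 27 interferon-stimulated genes called higher. Rescaling each library to a total of 1000000 FPKM gave 1287 genes lower, 2 other family genes lower, an IFIT median of 0.22 and 18 interferon-stimulated genes higher. With no fold threshold 8292 genes passed (2570 higher, 5722 lower), among them 34 interferon-stimulated genes (32 and 2), 12 and 10 upstream genes and 7 and 5 other family genes. Median ratio scaling with no fold threshold, chosen after seeing the data, gave 7859 (3994 and 3865), 36 interferon-stimulated (35 and 1), 18 and 4 upstream and 11 and 3 other family genes. The cause of these shifts was not tested beyond the construction of each setting.

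Leaving out 1 library at a time gave 15 to 23 interferon-stimulated genes called higher and 2 to 4 other family genes called higher. *Mx1* ranged from -0.093 to 0.34, *Gbp2* from -0.12 to 0.029, *Ifitm2* from -0.018 to 0.064, *Trim21* from -0.060 to 0.10 and *Ifnar2* from -0.040 to 0.0046. Under other scalings *Gbp2* was 0.095 (median ratio) and 0.13 (quantile), *Ifnar2* 0.14 and 0.13, and after rescaling to 1000000 *Ifitm2* was -0.062 and *Trim21* -0.055. The sign of these genes, none of which was called, was not settled by these data.

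Over all tested genes the replicate numbers showed no pairing of the libraries, with correlations of deviations of 0.02, 0.01 and -0.08 between libraries of the same number. For the interferon-stimulated genes the median deviations rose from library 1 to 3 in both groups. They were -0.07, 0.03 and 0.06 in Tyr-L and -0.14, -0.02 and 0.19 in Tyr-H libraries. A fit with the number as a replicate block called 20 interferon-stimulated genes and 1258 of all genes, and changed the call of none of the 43 tested genes.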

Other observations

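Relatives of the listed genes were taken from a list of 42 further family names, of which 33 were listed in at least 1 library and 24 tested. Among these, 2 were called higher and 0 lower, and by adjusted p alone 7 were higher and 5 lower, where 2.96% and 5.78% of all tested genes were called higher and lower and 17.9% and 39.9% passed the adjusted p. Median ratio scaling and quantile normalization each gave 5 called higher, and after median ratio scaling 11 passed the adjusted p higher and 3 lower, against 27.9% and 27.0% of all tested genes. By adjusted p 2 of the 3 tested OAS relatives and 2 of the 5 tested IRG relatives did not pass, and their groups overlapped. After median ratio scaling 1 OAS and 4 IRG relatives passed higher. The called genes were the T-cell-specific GTPases *Tgtp1* and *Tgtp2*, effector members of the IRG family. *Tgtp1* stood at 0.129, 0.123 and 0.205 FPKM in Tyr-L against 0.502, 0.459 and 0.664 FPKM in Tyr-H cells (log2 fold change 1.35, SE 0.26, adjusted p = 0.0016), and *Tgtp2* at 0.216, 0.283 and 0.268 FPKM in Tyr-L against 0.959, 1.04 and 1.36 FPKM in Tyr-H cells (log2 fold change 1.77, SE 0.21, adjusted p = 8e-05), with no overlap between groups. Their levels are uncertain against each other, since 73.1% and 76.8% of their 100-base stretches are shared. Both lost the call at a pseudocount of 1 FPKM, and neither was tested with a mean of at least 1 FPKM. *Ifit3b* stood at 1.22, 1.30 and 1.19 FPKM in Tyr-L against 1.74, 2.38 and 3.26 FPKM in Tyr-H cells (log2 fold change 0.89, SE 0.20, adjusted p = 0.0041), and *Oas1g* at 0.763, 1.32 and 0.892 FPKM in Tyr-L against 1.41, 2.05 and 2.31 FPKM in Tyr-H cells (log2 fold change 0.90, SE 0.23, adjusted p = 0.0085), both past the adjusted p, under the fold threshold and named after their values were seen. *Oas1e*, *Oas1f*, *Gbp2b*, *Gbp8*, *Irgb10*, *F830016B08Rik*, *Irgc1*, *Ifitm6* and *Ifitm7* were listed in no library.

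A further list of 12 genes of the PARP family was drawn by family and not by response to interferon. It includes DNA repair enzymes, the tankyrases, *Parp11* and *Zc3hav1*. By adjusted p 1 of the 12 passed higher and 5 passed lower, near the 39.9% of all tested genes, and 0 were called. After median ratio scaling 4 passed higher and 3 lower. Their median log2 fold change was -0.19, near the -0.15 of all tested genes, beside 0.86 for the PARP genes of the main list with *Dtx3l*. The difference between both lists was not tested.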
